A study of Mus musculus with 60 samples.

Results

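The potassium channel genes were taken as all protein-coding mouse genes whose symbol starts with Kcn followed by a subfamily letter or letters and a number. This rule, which used no measured value, found 93 genes in 20 subfamilies, Kcna to Kcnv, among 21530 protein-coding genes and 35889 genes in all. Each was measured as the sum of its transcripts in cells positive for the neuronal marker NeuN, taken from 2 brain regions, the medial prefrontal cortex (mPFC) and the nucleus accumbens (NAc), of mice that had self-administered both cocaine and sucrose.

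Mice of both sexes, aged 8 to 16 weeks and labelled Ai14xFosiCre (Ai14:cFos-TRAP2), earned cocaine at 0.5 mg/kg per infusion and sucrose pellets of 15 mg, went through extinction, and were then tested once with the cues of each reward. In this line the Fos gene drives an inducible Cre, and 50 mg/kg 4-hydroxytamoxifen (4-OHT) after the cocaine cue session left tdTomato in cells that had been active. The mice were killed 60 min after the sucrose cue session and cFos protein was stained. Cells with tdTomato (cocaine-seeking), with cFos (sucrose-seeking), with both labels (overlapping) and with neither (non-ensemble) were sorted from 3 pools of 3 mice per sex and region, which gave 48 libraries in 16 groups of 3. All 4 populations came from mice with the same alleles, drug, sucrose and 4-OHT. The cocaine label was always the earlier, permanent tag and the sucrose label always the later antibody stain, so reward and labelling method cannot be told apart. A further 12 libraries, 3 per sex and region, are labelled naive, a word the labels do not explain; they carry the same treatment label as the others.

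Potassium channels let potassium leave or enter the cell and so set the resting potential, the shape of the action potential and the firing rate. Voltage-gated (Kv) subunits of the Kcna, Kcnb, Kcnc, Kcnd, Kcnh and Kcnq subfamilies form pores that open on depolarisation. The silent Kcnf, Kcng, Kcns and Kcnv subunits work only beside Kcnb subunits, and Kcnab, Kcne and Kcnip proteins attach to Kv pores as auxiliary subunits. Inward rectifiers (Kcnj) hold the neuron near rest, two-pore-domain channels (Kcnk) carry leak current, and Kcnma, Kcnn and Kcnt pores open with calcium or sodium, with Kcnmb proteins as auxiliary subunits of the Kcnma pore. In striatal projection neurons Kir2 inward rectifiers, of which Kcnj4 is a main subunit, keep the cell silent between inputs, while Kcnj10 is the main inward rectifier of astrocytes.

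The 48 libraries of the 4 sorted populations held 9933361 to 24500899 estimated counts (median 13723715), of which the potassium channel genes took 0.397 to 0.612%. The 12 naive libraries were deeper, at 29238727 to 45299753, with a share of 0.463 to 0.631%. Several libraries stood apart from their labels. In the female mPFC pools the cortical glutamatergic marker Slc17a7 lay at 24.2 to 75.6 CPM (counts scaled to the library's total; the mean of a pool's populations), below the 190 to 529 CPM of the NAc pools. Male mPFC pool 2 had 40.1 CPM of Slc17a7 against 384 and 505 CPM in the other male mPFC pools, and its 9 striatal projection markers summed to 2286 CPM against 407 and 1132 CPM, within the 1837 to 3760 CPM of the male NAc pools. The NAc pools also held cortical signal: 8 cortical glutamatergic markers summed to 803 to 1240 CPM there, against 1050 and 1275 CPM in male mPFC pools 1 and 3. The Y-linked gene Ddx3y reached 15.2 (NAc) and 16.4 CPM (mPFC) in female pool 2, and at most 1.6 CPM in the other female pools. The sucrose-seeking and overlapping libraries of male mPFC pool 3 were female in one label field, but their title code and male-level Ddx3y put them with the males. For the comparison of regions, the counts without female pool 2 and without male pool 2 are given beside the others. Every female mPFC pool was low in Slc17a7, so no female count free of such pools can be given.

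**Figure D1:**
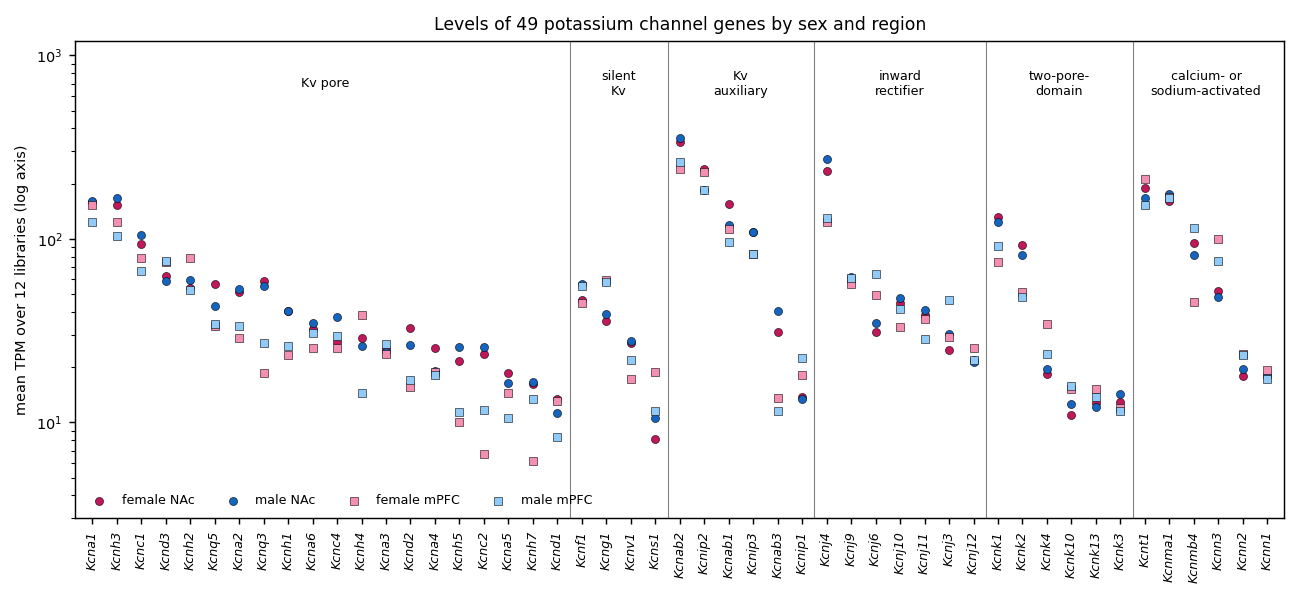
Mean TPM (log axis) over the 12 sorted libraries of each sex and region for 49 of the 52 potassium channel genes above the odorant receptor level, grouped by role and ordered by level within it. Circles are the NAc and squares the mPFC; Kcnab2 stands highest among the genes drawn, and for Kcnj4, Kcnab3 and Kcnh5 both NAc points lie above both mPFC points.

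Levels were compared between genes as TPM, averaged over the 48 libraries. TPM divides by an effective length, which is fitted to each library and is not the transcript's own length. For Kcnj4 it averaged 1011 bases in female NAc and 414 bases in female mPFC non-ensemble libraries. The part of this length in the levels and their spread was not tested. The 95th percentile of 1193 odorant receptor genes, which brain neurons use little if at all, was 11.3 TPM (median 1.21 TPM). Of the 93 genes, 52 lay above that level and 41 at or below it; 11 exceeded 100 TPM, and the 10 highest held 51.8% of the summed TPM of all members. None averaged under 1 count per library, and 3 (Kcne5, Kcnh8 and Kcnk15) had 0 counts in 1 library each.

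The 30 Kv pore genes held 40.7% of the members' TPM, and 23 of them were above the odorant receptor level. Kcna1 (Kv1.1, at axons) averaged 149 ± 38.2 TPM (SD, n = 48) and Kcnh3 137 ± 57.1 TPM. The fast-closing Kv3 pore Kcnc1 averaged 85.9 ± 22.3 TPM, and the A-type pores Kcnd3 and Kcnd2 averaged 67.9 ± 21.1 and 22.9 ± 9.29 TPM. The 12 auxiliary genes held 20.7%, almost all of it in Kcnab2 (298 ± 74.7 TPM), Kcnab1 (121 ± 35.7 TPM), Kcnip2 (209 ± 66.5 TPM) and Kcnip3 (95.9 ± 29.6 TPM). Every Kcne gene averaged below the odorant receptor level, the highest being Kcne1 at 6.63 ± 4.55 TPM. Neighbours in this order such as Kcna1 and Kcnh3 differed by less than 1 SD.

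Among the 10 silent subunits, which held 4.44%, Kcnf1 (50.7 ± 10.7 TPM) and Kcng1 (48.3 ± 16.8 TPM) led, and 4 were above the odorant receptor level. The 15 inward rectifiers held 12%, led by Kcnj4 (Kir2.3) at 190 ± 81.6 TPM and Kcnj9 (a G protein-activated subunit) at 59.6 ± 23.9 TPM. Of the 14 two-pore-domain genes, which held 7.43%, Kcnk1 (105 ± 29.7 TPM) and Kcnk2 (TREK-1, 68.1 ± 24.6 TPM) were highest, and 6 were above the odorant receptor level. The 12 calcium- or sodium-activated genes held 14.7%, with the sodium-activated Kcnt1 at 181 ± 75.7 TPM, the large-conductance pore Kcnma1 at 168 ± 22.6 TPM, its neuronal auxiliary subunit Kcnmb4 at 83.9 ± 42.5 TPM and the small-conductance Kcnn3 at 68.6 ± 30.1 TPM. Kcnma1 varied least among these, by 1.7-fold from its lowest to its highest library, and Kcnj4 spanned 10.4-fold.

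The first question was how sucrose-seeking cells differed from non-ensemble cells of the same region. In the NAc most potassium channel genes that changed were lower in sucrose-seeking cells, in both sexes, and the sodium-activated channel Kcnt1 was higher. A gene was counted as changed at an adjusted p below 0.05 in edgeR's quasi-likelihood test on estimated counts, adjusted over all genes tested. In female NAc 15 members were lower, where 10.1% of all genes tested were, and 3 were higher, where 5.78% of all genes were. In male NAc 9 members were lower against 6.56% of all genes, and 0 were higher, where 705 of 24917 genes were. The median log2 fold change of all 93 members was -0.26 in both sexes, against 0.16 (female) and 0.10 (male) for all genes tested. By the stricter rule of the study (adjusted p below 0.01 and an absolute log2 fold change above 0.75) 2 members passed in female NAc, where 2.78% of all genes did, and 0 of 93 in male NAc, where 0% of all genes did.

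Both sexes shared 7 of these calls, which is 38.9% of the female and 77.8% of the male calls, all lower, among them Kcna2, Kcnab2, Kcnf1, Kcnj4, Kcnj10 and Kcnk1. All 18 female calls had the same sign of change in males, and all 9 male calls in females. The same overlap and agreement of sign over all genes are not given. A test of the difference between the sexes called 0 members, where 0% of all genes were called (edgeR; 1 member and 3.11% of all genes at an unadjusted p under 0.05, and 0 members by DESeq2). With both sexes in 1 fit and the effect averaged over them, 30 members were lower (15.8% of all genes) and 4 were higher (11.2% of all genes). The 30 lower ones comprised 14 of 30 Kv pore genes, 6 of 15 inward rectifiers, 3 of 10 silent subunits, 3 of 12 auxiliary genes, 2 of 14 two-pore-domain genes and 2 of 12 calcium- or sodium-activated genes. The silent subunits had the lowest median log2 fold change in that fit, at -0.42 with 9 of 10 below 0. Those of the two-pore-domain genes (-0.02) and of the calcium- or sodium-activated genes (-0.03) lay nearest to 0.

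In bulk libraries such as these, fewer cells of a type and less RNA per cell cannot be told apart. Marker lists moved with the comparison. The summed level of 4 neuronal markers fell from 4659 ± 285 to 3094 ± 335 CPM in female NAc (SD, n = 3) and from 4560 ± 236 to 3153 ± 310 CPM in male NAc. The summed level of 6 astrocyte markers was 4871 ± 569 CPM in non-ensemble and 2859 ± 323 CPM in sucrose-seeking cells of female NAc, and 5144 ± 396 and 3155 ± 673 CPM in male NAc. In the same order, 8 interneuron markers summed to 923 ± 72.9 and 587 ± 68.6 CPM in female NAc and 840 ± 113 and 553 ± 80 CPM in male NAc. The 9 striatal projection markers summed to 3795 ± 160 and 2718 ± 155 CPM in female NAc and 2953 ± 963 and 2240 ± 904 CPM in male NAc. Endothelial markers went the other way, at 88.7 ± 29.8 and 234 ± 26.3 CPM in female NAc and 77.7 ± 12.1 and 164 ± 62.8 CPM in male NAc. None of these lists had a marker at 0 in any group. Their part in the channel results was not tested.

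**Figure D2:**
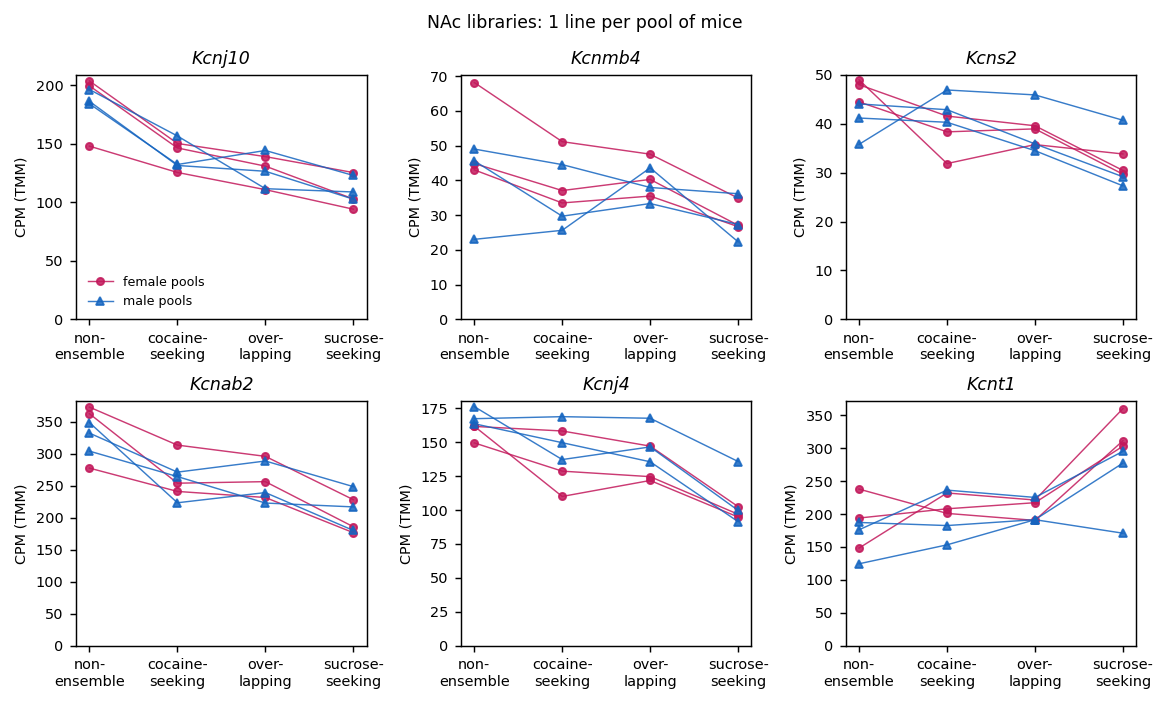
Levels in CPM of 6 potassium channel genes in the NAc, with 1 line per pool joining the 4 populations of that pool, by sex. Kcnj10, Kcnab2 and Kcnj4 lie lower in the sucrose-seeking than in the non-ensemble library of all 6 pools, and Kcnt1 lies higher.

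Among the inward rectifiers, Kcnj4 (GRCm39 chromosome 15, 79367321 to 79390032, minus strand) read 149, 162 and 162 CPM in the 3 non-ensemble libraries of female NAc and 96.9, 102 and 94.8 CPM in the sucrose-seeking ones. In male NAc it read 164, 176 and 167 CPM against 91.4, 99.7 and 136 CPM. The groups did not overlap in either sex, and Kcnj4 fell by 0.74 ± 0.13 (log2, SE; edgeR adjusted p = 0.0056) in females and by 0.68 ± 0.15 (adjusted p = 0.019) in males. Kcnj10 (Kir4.1; chromosome 1, 172168765 to 172201652, plus strand) went from 148, 204 and 199 CPM to 94.1, 125 and 103 CPM in females and from 196, 186 and 184 CPM to 109, 103 and 123 CPM in males. Again no sucrose-seeking library reached a non-ensemble one, with a log2 fold change of -0.82 ± 0.16 (edgeR adjusted p = 0.0058) in females and -0.81 ± 0.15 (adjusted p = 0.015) in males. Kcnj10 and its partner subunit Kcnj16 are mainly glial genes, and they fell beside the astrocyte markers given above. Kcnj16 was lower in males (-0.81 ± 0.22, edgeR adjusted p = 0.031), and Kcnj12, another Kir2 subunit, was lower in females (-0.94 ± 0.23, adjusted p = 0.014). Kcnj15 rose in females (1.30 ± 0.37, edgeR adjusted p = 0.028), with 1.52 to 2.57 CPM in non-ensemble and 4.22 to 6.01 CPM in sucrose-seeking libraries, a read count far below that of Kcnj4.

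Among the Kv pores, the axonal Kcna2 fell in both sexes, by 0.54 ± 0.14 (edgeR adjusted p = 0.016) in females and 0.61 ± 0.15 (adjusted p = 0.026) in males. Its libraries read 297, 334 and 329 CPM (non-ensemble) and 200, 250 and 237 CPM (sucrose-seeking) in females, and 354, 323 and 376 CPM and 239, 207 and 266 CPM in males. Kcnc2, a Kv3 pore of fast-spiking interneurons, was lower in males (-0.65 ± 0.19, edgeR adjusted p = 0.04). In females Kcna5, Kcnh1 and Kcna1 were also called lower, with log2 fold changes of -0.64, -0.37 and -0.35.

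Kcnab2, the auxiliary beta subunit of Kv1 channels (chromosome 4, 152474250 to 152562651, minus strand), read 277, 373 and 362 CPM in female non-ensemble and 176, 228 and 186 CPM in female sucrose-seeking libraries. The male libraries read 304, 348 and 332 CPM against 217, 180 and 248 CPM. These groups did not overlap either, with log2 fold changes of -0.83 ± 0.16 (edgeR adjusted p = 0.0058) and -0.65 ± 0.16 (adjusted p = 0.022). Kcnip3, a calcium-binding partner of Kcnd pores, fell by 0.39 ± 0.12 in females (edgeR adjusted p = 0.034). Kcne4 rose in females by 1.35 ± 0.39 (adjusted p = 0.027), with 1.36 to 2.44 CPM in non-ensemble and 4.07 to 5.76 CPM in sucrose-seeking libraries. The silent subunit Kcnf1 (chromosome 12, 17222101 to 17226889, minus strand), a single-exon gene, read 113, 112 and 127 CPM against 69.7, 79.4 and 70.3 CPM in females and 138, 124 and 121 CPM against 91.4, 80 and 85.9 CPM in males. Its groups were separate in both sexes, at -0.74 ± 0.15 (edgeR adjusted p = 0.0063) and -0.62 ± 0.17 (adjusted p = 0.031). Kcns2 was called lower in females (-0.65 ± 0.14, edgeR adjusted p = 0.0078) and had a log2 fold change of -0.36 ± 0.18 in males (adjusted p = 0.23).

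The two-pore-domain channel Kcnk1 (TWIK-1) was lower by 0.57 ± 0.12 (edgeR adjusted p = 0.0084) in females and 0.58 ± 0.17 (adjusted p = 0.044) in males. Among calcium- and sodium-activated channels, Kcnmb4 was lower in females, from 44.8, 68.1 and 43 CPM to 27.1, 34.9 and 26.7 CPM (-0.87 ± 0.21, edgeR adjusted p = 0.013). Its male values were 23, 45.6 and 49 CPM against 22.3, 27.3 and 36.1 CPM, which overlap (-0.50 ± 0.26, adjusted p = 0.23). Kcnt1 (Slack; chromosome 2, 25753746 to 25809578, plus strand) went against the others: 238, 194 and 148 CPM in female non-ensemble and 312, 303 and 360 CPM in female sucrose-seeking libraries, 124, 187 and 176 CPM and 171, 278 and 295 CPM in male ones. Kcnt1 was called higher in females (0.69 ± 0.16, edgeR adjusted p = 0.010) and had 0.55 ± 0.19 in males (adjusted p = 0.081). Averaged over the sexes the 4 higher members were Kcnt1 (0.60 ± 0.13, edgeR adjusted p = 0.0015), the small-conductance Kcnn2 (0.36 ± 0.11, 0.02), the vascular KATP pore Kcnj8 (0.80 ± 0.29, 0.041) and Kcnj15 (0.85 ± 0.31, 0.045). Kcnj8 marks pericytes, whose 6 markers summed to 78.7 ± 9.57 and 165 ± 12.9 CPM in female and 92.4 ± 5.51 and 125 ± 46.2 CPM in male non-ensemble and sucrose-seeking NAc; their part in its rise was not tested.

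The number of calls changed with the pools used and with the scaling of the counts. Leaving out female pool 3, the whole pool, left 0 of the 18 female calls, pool 1 left 5 of them and pool 2, with its Y-linked reads, left 12. Leaving out the sucrose-seeking library of pool 3 alone left 4. In males 0 of the 9 were left without pool 1 or without pool 2 and 5 without pool 3. The shares of all genes called in these smaller fits are not given, so the losses cannot be read as particular to the members. With the pool as a block, which the sorting of all 4 populations from the same mice warrants, 35 members passed in female NAc (26.4% of all genes) and 20 in male NAc (19.1% of all genes).

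The files also give each transcript an effective length fitted to its library, and this length differed between the populations. The members' effective length was shorter in sucrose-seeking than in non-ensemble NAc libraries by a median log2 ratio of -0.62 in females and -0.61 in males, against -0.22 over all genes in each sex. For Kcnj4 it went from 1011 to 451 bases in female NAc. A count per length therefore read differently from a count. When counts were scaled by the effective length, 2 members were called in female NAc (Kcnt1, 1.20, edgeR adjusted p = 0.039, and Kcns2, -1.08, adjusted p = 0.046), where 2.57% of all genes were, and 0 in male NAc, where 0% were. Of the 18 female calls 15 kept their sign, with a median of -0.19 in place of -0.56, and of the 9 male calls 8 did, with -0.55 in place of -0.65. Kcnj4 came to -0.02 in females, and among the called genes whose sign turned were Kcna1 (0.32) and Kcnip3 (0.18). On the TPM scale, the summed level of all 93 members was higher in sucrose-seeking than in non-ensemble NAc, at 4492 and 3459 TPM in females and 4690 and 3640 TPM in males. The lower values of the channel genes are thus lower shares of reads, and whether their molecules per cell were fewer was not tested.

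**Figure D3:**
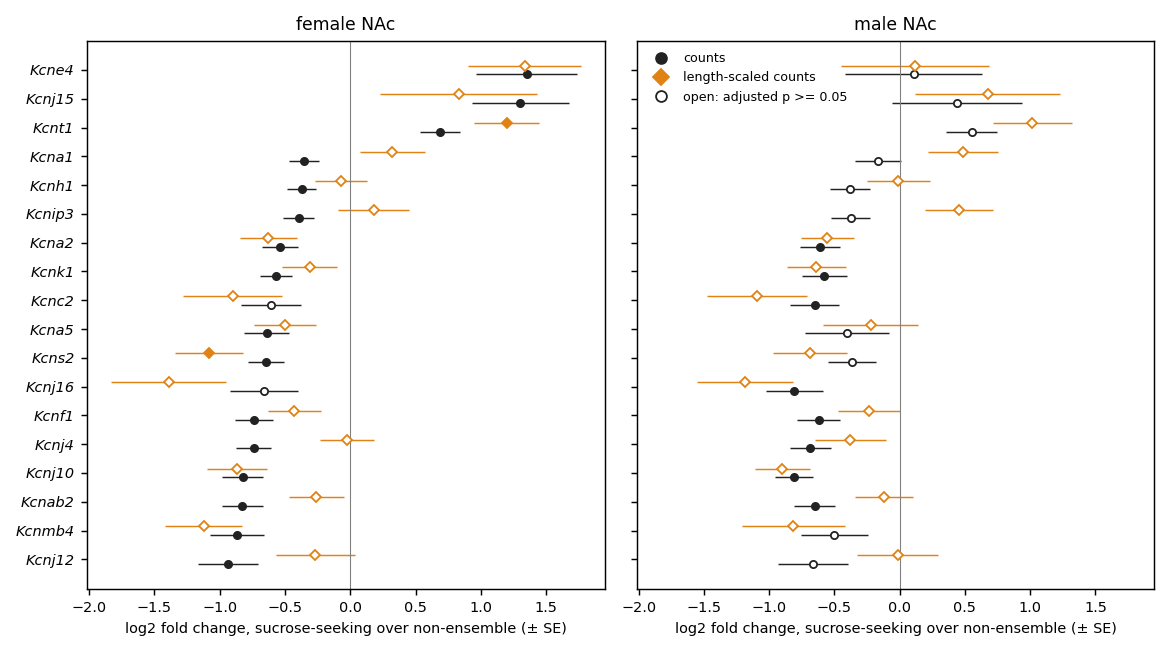
Log2 fold change (with SE) of sucrose-seeking over non-ensemble NAc libraries for 18 of the 20 potassium channel genes called in either sex, from counts and from counts scaled by effective length. Kcnj10 and Kcna2 lie at similar negative values on both scales in both sexes, Kcnj16, Kcnmb4, Kcns2 and Kcnc2 lie lower when scaled, Kcnj4 in females moves from -0.74 to -0.02, and Kcna1 crosses 0. Open points have an adjusted p of 0.05 or more.

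The promoters of 3 genes that fell in the NAc are shown because the sort was defined by Fos, a factor of AP-1 sites, whose own gene is switched on through a CRE. Each window holds 250 bases before and 50 after the RefSeq start (GRCm38.p6, the only build of the promoter table), 5′ to 3′ on the gene's strand, with capitals marking a GC box, GGGCGG on either strand. Kcnj4 (chr15:79505192-79505491, minus strand) and Kcnmb4 (chr10:116473474-116473773, minus strand) held 4 GC boxes each and Kcnj10 (chr1:172340960-172341259, plus strand) held 3.
Kcnj4: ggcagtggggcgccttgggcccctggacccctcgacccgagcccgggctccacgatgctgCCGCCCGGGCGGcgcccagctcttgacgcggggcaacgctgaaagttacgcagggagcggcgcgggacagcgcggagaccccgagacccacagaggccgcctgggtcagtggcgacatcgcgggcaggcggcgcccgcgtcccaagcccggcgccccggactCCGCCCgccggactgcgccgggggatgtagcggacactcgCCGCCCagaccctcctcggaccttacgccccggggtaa
Kcnmb4: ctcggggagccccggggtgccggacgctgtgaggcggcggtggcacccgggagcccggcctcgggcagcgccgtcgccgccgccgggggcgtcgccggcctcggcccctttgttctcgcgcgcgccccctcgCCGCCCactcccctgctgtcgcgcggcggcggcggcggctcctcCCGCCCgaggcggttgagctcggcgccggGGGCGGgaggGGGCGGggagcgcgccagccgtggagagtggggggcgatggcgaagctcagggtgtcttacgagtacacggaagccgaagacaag
Kcnj10: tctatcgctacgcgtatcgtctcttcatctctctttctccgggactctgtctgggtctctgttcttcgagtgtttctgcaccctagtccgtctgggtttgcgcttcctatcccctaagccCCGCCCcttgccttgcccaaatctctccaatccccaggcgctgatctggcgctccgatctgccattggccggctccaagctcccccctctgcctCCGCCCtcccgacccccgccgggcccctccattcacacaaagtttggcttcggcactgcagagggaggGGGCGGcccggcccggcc
Such windows existed for 67 of the 93 members, some with more than 1. A GC box stood in at least 1 window of 62.7% of these 67 genes and of 38.2% of all genes with a promoter window of this length. The AP-1 motif TGANTCA stood in a window of 5.97% of the members (Kcne3, Kcnip3, Kcnip4 and Kcnk2) and of 8.97% of all genes, and the CRE motif TGACGTCA in 0% and 2.03%. Both strands were searched, and no site can match more than one of these motifs. In the 15 called members of the NAc comparison that have a window, the shares were 60% for the GC box and 6.67% for AP-1.

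In the mPFC the same comparison called 0 members in each sex (edgeR), where 0.025% (female) and 0.205% (male) of all genes were called; 7 and 9 members (7.53 and 9.68%) had an unadjusted p under 0.05, against 13.8 and 20.1% of all genes, and DESeq2 called 3 in each sex, against 2.32 and 6.41% of all genes. The smallest p-values belonged to Kcnt1 (0.70 ± 0.17) and Kcnab2 (-0.66 ± 0.16) in females and to Kcnn2 (0.66 ± 0.16) and Kcnj11 (-0.76 ± 0.23) in males. With the pool as a block 8 members passed in female mPFC (13.8% of all genes) and 12 in male mPFC (17.2% of all genes). Averaged over the sexes 2 members were higher, where 6.61% of all genes were, and 5 were lower, where 6.36% were, so that the members' share was near or below that of all genes. Kcnn2 (SK2), which follows spikes with a slow hyperpolarisation, read 36.7, 37.9 and 41.9 CPM in female and 33.9, 39.3 and 44.1 CPM in male non-ensemble libraries, against 48.1, 47.3 and 59.9 CPM and 64.7, 62.2 and 61 CPM in sucrose-seeking ones. No sucrose-seeking library of either sex overlapped the non-ensemble ones, and the averaged difference was 0.56 ± 0.11 (log2, SE; edgeR adjusted p = 0.0025). Kcnt1 rose in the same fit (0.64 ± 0.14, adjusted p = 0.0061), as in the NAc. Kcnab2 (-0.61 ± 0.12, edgeR adjusted p = 0.0031), Kcnf1 (-0.58 ± 0.15, 0.012), the KATP pore Kcnj11 (-0.51 ± 0.16, 0.038), Kcna2 (-0.37 ± 0.12, 0.044) and Kcnj10 (-0.39 ± 0.13, 0.049) were lower. A test of a difference between the sexes called 0 members (edgeR; 0% of all genes; 0 members and 4.34% of all genes at an unadjusted p under 0.05, and 0 members by DESeq2).

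**Figure D4:**
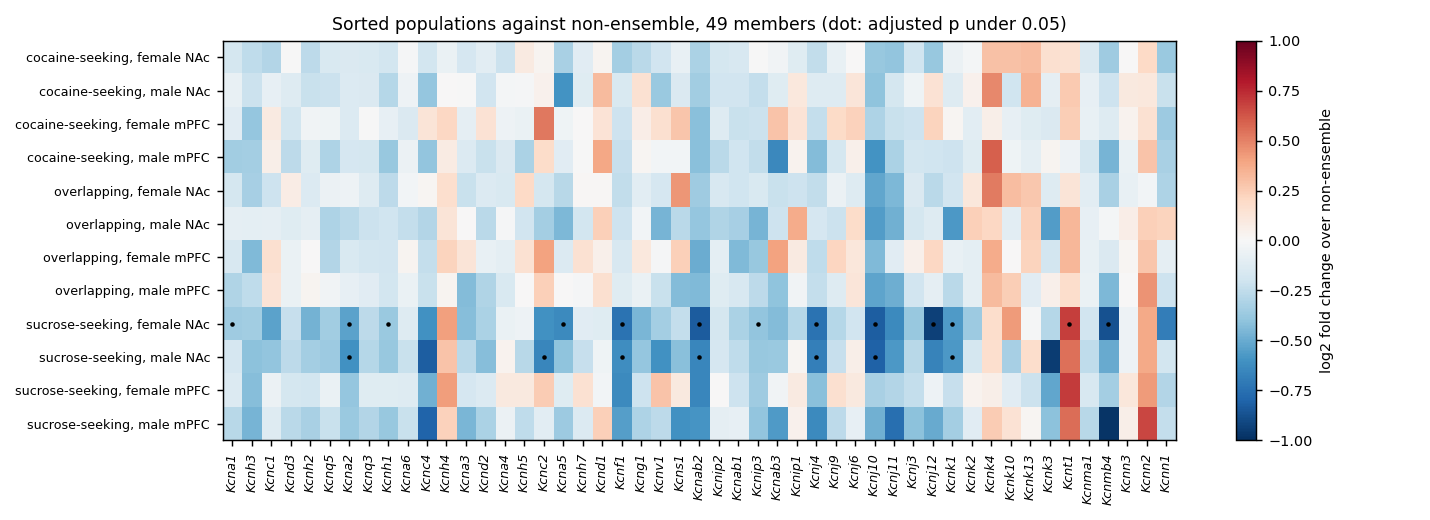
Log2 fold changes (colour) against non-ensemble cells of 49 of the 52 potassium channel genes above the odorant receptor level, in the 12 comparisons of a population with non-ensemble by sex and region; a dot marks an edgeR adjusted p below 0.05, and the colour scale ends at 1 and -1. Of the 12 comparisons, dots stand only in those of sucrose-seeking cells of the NAc.

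Sucrose-seeking and cocaine-seeking cells were compared directly to see whether the channel genes separated the rewards. Within each sex and region edgeR called 0 members, where in the NAc 0.363% (female) and 0.0241% (male) and in the mPFC 0.0214% (female) and 0.0118% (male) of all genes were called. At an unadjusted p under 0.05 stood 14, 15, 2 and 2 members in that order, against 15.3, 7.63, 3.62 and 4.44% of all genes, and DESeq2 called 5 (3.71% of all genes), 0, 0 and 0. The smallest p-values in the NAc were those of Kcnk1 (0.51 ± 0.12 in females) and of Kcnc2 (0.70 ± 0.19 in males). Averaged over the sexes in the NAc, 10 members were higher in cocaine-seeking cells and none lower. Of all genes 4.36% were higher, and 255 of 27546 were lower. They included Kcnj4 (0.54 ± 0.11, edgeR adjusted p = 0.0097), Kcnk1 (0.49 ± 0.11, 0.016), Kcnc2 (0.68 ± 0.16, 0.018), Kcna2 (0.45 ± 0.11, 0.019), Kcnj10, Kcnf1, Kcnj12, Kcns2 and Kcnab2, the last 5 with log2 fold changes of 0.42 to 0.70. Kcnj4 read 129, 158 and 110 CPM in cocaine-seeking female and 150, 137 and 169 CPM in cocaine-seeking male NAc, above the sucrose-seeking library of each of the 6 pools. Kcnf1 read 89.4, 114 and 73.4 CPM in females and 133, 113 and 93.6 CPM in males, likewise above its sucrose-seeking libraries of the same pools. This comparison shares its sucrose-seeking libraries with the one above, and its values are not a separate measurement of them. With the pool as a block the female NAc comparison called 11 members, 10 higher in cocaine-seeking cells (8.38% of all genes) and Kcnt1 lower (-0.54 ± 0.13, adjusted p = 0.014). In the mPFC the averaged fit called 0 members (edgeR; 5 members and 8.3% of all genes at an unadjusted p under 0.05).

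Cocaine-seeking cells were set against non-ensemble cells in the same way. The 4 comparisons called 0 members (edgeR), where 0.00781% of all genes were called in female NAc and 0% in the other 3. In the NAc 7 members (female) and 3 (male) had an unadjusted p under 0.05, in the mPFC 2 (female) and 4 (male), against 5.41 to 15.4% of all genes, and DESeq2 called 0. Kcnj10 had the smallest p in male NAc (-0.40 ± 0.15) and male mPFC (-0.60 ± 0.19), Kcnab2 in female mPFC (-0.42 ± 0.16) and Kcnj15 in female NAc (1.03 ± 0.37). Averaged over the sexes with the pool as a block, 9 members passed in the NAc (9.35% of all genes) and 9 in the mPFC (15.8% of all genes), led in both by Kcnj10 (-0.39 ± 0.08, edgeR adjusted p = 0.0023, and -0.44 ± 0.07, 0.00016) and Kcnab2 (-0.34 ± 0.07, 0.0046, and -0.42 ± 0.07, 0.00021). As shares these counts are near or below those of all genes.

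Overlapping cells gave 0 calls against non-ensemble cells within each sex and region (edgeR), where in the NAc 0.0391% (female) and 0.12% (male) and in the mPFC 0.0608% (female) and 0% (male) of all genes were called. At an unadjusted p under 0.05 were 7, 10, 7 and 4 members, against 11.3, 14.9, 7.48 and 12.6% of all genes, and DESeq2 called 1 in male NAc (1.88% of all genes). Averaged over the sexes Kcnj10 was lower in the NAc (-0.55 ± 0.11, edgeR adjusted p = 0.013), where 1.97% of all genes were called, and Kcnk6, a two-pore-domain gene, was higher in the mPFC (0.70 ± 0.15, adjusted p = 0.036), where 0.568% were. The 6 microglial markers summed to 98.7 ± 7.56 CPM in non-ensemble and 270 ± 47.5 CPM in overlapping cells of female mPFC, and to 122 ± 18.4 and 274 ± 37.4 CPM in male mPFC; in the NAc they went from 149 ± 35.1 to 291 ± 28.6 CPM (female) and from 141 ± 22.4 to 350 ± 43.9 CPM (male). Their part in these changes was not tested. Kcnk6 read 10.5, 7.94 and 9.07 CPM in female and 9.83, 7.79 and 5.61 CPM in male non-ensemble mPFC, and 14.8, 12 and 16.4 CPM and 13.9, 12.9 and 11.6 CPM in overlapping cells. Cocaine-seeking and overlapping cells, which share the tdTomato label, differed in 0 members in each sex and region (edgeR), where 0% of all genes were called in each; 0, 2, 1 and 1 members had an unadjusted p under 0.05, against 1.5 to 2.42% of all genes, and DESeq2 called 0.

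The regions were compared on counts summed over the 4 populations of each pool. In females 48 members were higher in the NAc, where 24.2% of all genes were, and 15 were lower, where 17.8% were; by the stricter rule 43 passed, where 14.4% of all genes did. Without female pool 2 in both regions 41 were higher (18.1% of all genes) and 5 lower (4.88% of all genes). The female mPFC libraries are those whose cortical markers were low, and the part of this in the female counts was not tested. The cortical marker sums of the NAc pools overlapped those of male mPFC pools 1 and 3, and their part was not tested either. In males, 10 members were higher in the NAc against 0.761% of all genes, 2 were lower against 1.13%, and 4 passed the stricter rule against 0.956%. Of the 12 male calls 11 were also called in females in the same direction, 91.7% of the male and 17.5% of the female calls. This overlap over all genes is not given. A difference between the sexes was called for 0 members (edgeR; 0% of all genes), though 45 had an unadjusted p under 0.05 (31.3% of all genes) and DESeq2 called 25 (13.2% of all genes). Without male pool 3 in both regions edgeR called 32, and without its mPFC sum alone 18. The shares of all genes in those leave-out fits are not given.

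**Figure D5:**
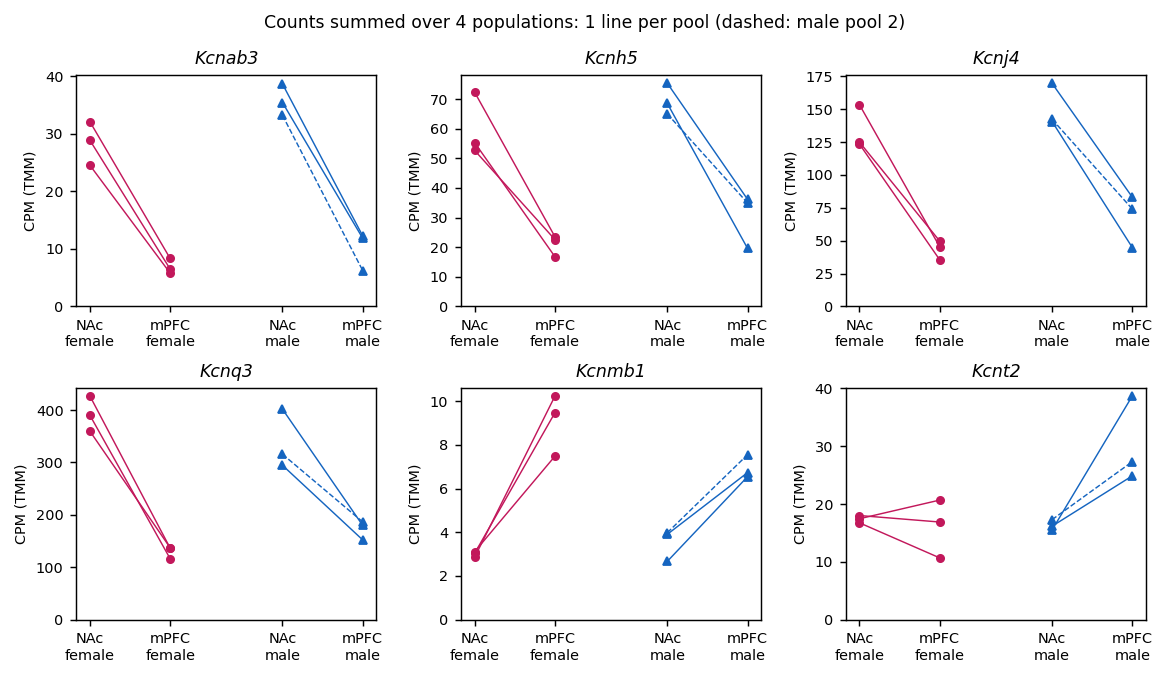
Levels in CPM of 6 potassium channel genes in NAc and mPFC, with 1 line per pool (sums over the 4 populations) and male pool 2, whose mPFC markers were low, dashed. Kcnab3, Kcnh5, Kcnj4 and Kcnq3 lie higher in the NAc in all 6 pools, and Kcnmb1 lies higher in the mPFC.

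Kcnab3, another beta subunit of Kv1 channels, had the strongest regional difference in both sexes. Its pool sums read 24.5, 32.1 and 28.9 CPM in female and 35.4, 33.2 and 38.7 CPM in male NAc, against 5.8, 8.3 and 6.5 CPM and 11.8, 6.2 and 12.2 CPM in the mPFC. The difference was 2.03 ± 0.22 in females (log2, SE; edgeR adjusted p = 4.2e-05) and 1.83 ± 0.22 in males (adjusted p = 0.00017), with no overlap. Kcnj4 read 125, 153 and 123 CPM in female and 141, 142 and 170 CPM in male NAc, and 49.7, 45.3 and 35.4 CPM and 44.8, 74.1 and 83.1 CPM in the mPFC. It was higher in the NAc by 1.60 ± 0.21 (edgeR adjusted p = 0.00012) and 1.16 ± 0.21 (adjusted p = 0.0044). The M-current pore Kcnq3 (1.57 ± 0.17 and 0.96 ± 0.17) and the ether-à-go-go pore Kcnh5 (1.50 ± 0.21 and 1.20 ± 0.21) were also higher in both sexes. The other male calls were Kcnk2, Kcns2, Kcna2, Kcnh3, Kcnh1 and Kcnip4, with 0.68 to 0.87 in males and 1.11 to 1.52 in females. In the mPFC direction stood Kcnmb1 (-1.61 ± 0.20 and -0.98 ± 0.20, edgeR adjusted p = 9.6e-05 and 0.013), a smooth muscle auxiliary subunit, and, in males, the sodium-activated Kcnt2 (-0.89 ± 0.21, adjusted p = 0.031). Kcnmb1 averaged below the odorant receptor level. Its pool sums read 3.11, 3.04 and 2.86 CPM in female and 3.9, 3.98 and 2.67 CPM in male NAc. In the mPFC they read 7.48, 9.47 and 10.2 CPM (female) and 6.73, 7.55 and 6.54 CPM (male).

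By role, 24 of 30 Kv pore genes were higher in female NAc and 5 in male NAc, while the two-pore-domain genes were split, with 4 higher and 3 lower in females. The 15 genes lower in female NAc included Kcnj1, Kcnn4, Kcnj15, Kcnk15 and Kcng4, all of low level; in the same libraries odorant receptor genes took 2.09 to 4.33% of counts in the mPFC and 0.684 to 2.35% in the NAc. Without male pool 2, 7 members were higher in male NAc (0.443% of all genes) and 0 lower (0.495% of all genes). These were Kcnab3 (1.62), Kcnh5 (1.37), Kcnh4 (1.37), Kcnj4 (1.28), Kcnk2 (1.17), Kcnq3 (1.07) and the A-type pore Kcnd2 (1.04). With counts scaled by effective length the female split was 29 higher (17.7% of all genes) and 17 lower (10.9% of all genes). With DESeq2's size factors it was 49 higher and 9 lower, for which the shares of all genes are not given. The median log2 fold change of all genes in the female comparison was -0.32, and -0.17 with those size factors; that of the members was 0.57 and 0.72.

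Naive libraries were set against non-ensemble libraries with the effect averaged over the sexes. Depth, file format and treatment history differed between these groups or are not given, and cannot be told apart from the label. The 9 striatal markers summed to 3183 CPM in male naive mPFC, against 4588 CPM in male naive NAc and 1522 CPM in female naive mPFC. In female mPFC the naive libraries were also higher than the non-ensemble ones in the summed cortical glutamatergic (3016 ± 1386 and 450 ± 43.5 CPM), astrocyte (6223 ± 1865 and 3453 ± 545 CPM) and neuronal markers (6154 ± 2248 and 2591 ± 388 CPM). In male mPFC the same sums were 1083 ± 141 and 1107 ± 532 CPM, 3981 ± 448 and 4979 ± 542 CPM, and 4629 ± 576 and 3988 ± 399 CPM. In female NAc the naive and non-ensemble sums were 2719 ± 765 and 1102 ± 93.6 CPM (cortical glutamatergic) and 7522 ± 517 and 4871 ± 569 CPM (astrocyte). In male NAc they were 1079 ± 113 and 1145 ± 238 CPM, and 3262 ± 63.6 and 5144 ± 396 CPM. The striatal sums in the NAc were 6226 ± 1840 and 3795 ± 160 CPM in females and 4588 ± 398 and 2953 ± 963 CPM in males. Their part in the channel results was not tested. In the NAc 13 members were higher in naive libraries (9.67% of all genes) and 14 were lower (8.33% of all genes). In the mPFC 28 were higher (14.9% of all genes) and 18 lower (19.9% of all genes). By sex, female mPFC had 32 higher (12.4% of all genes) and 18 lower (13.2%), and male mPFC 5 higher (3.67%) and 10 lower (8.25%); the difference between the sexes was not tested. Kcnk2, a stretch- and lipid-sensitive leak channel, was higher in both regions (0.91 ± 0.16, edgeR adjusted p = 0.0012, and 1.05 ± 0.12, 7.9e-06), as were Kcnq5 (0.58 ± 0.11 and 0.71 ± 0.12) and Kcnt2 (0.60 ± 0.13 and 0.81 ± 0.14). Kcnc2 was lower in NAc (-0.65 ± 0.12, edgeR adjusted p = 0.0015) and higher in mPFC (0.93 ± 0.26, 0.012). Among the lower members in the mPFC were the low-level Kcnk18 (-1.95 ± 0.30), Kcnn4 (-1.74 ± 0.27), Kcne1 (-1.76 ± 0.31) and Kcng4 (-1.31 ± 0.23).

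A list of 20 proteins that bind, scaffold or regulate these channels was counted beside them. In sucrose-seeking cells of female NAc 4 were lower: Akap5, a kinase anchor for Kcnq channels (-0.89), the scaffold Dlg4 (-0.63), Snx27, a sorting protein of G protein-activated Kcnj channels (-0.50), and Amigo1, an adhesion protein that binds Kv channels (-0.46). Abcc9, the partner of Kcnj8 in vascular KATP channels, was higher (1.18), and it also stands in the pericyte list. In male NAc Akap5 (-0.89) and the Kcnma1 partner Lrrc55 (-0.61) were lower and none was higher. Of all genes 10.1% were lower and 5.78% higher in the female comparison, and 6.56% were lower in the male one. In the region comparison 12 of the 20 were higher in female NAc (24.2% of all genes) and 1, Lrrc55 (0.93), in male NAc (0.761%). Against non-ensemble libraries, naive ones had 5 higher (9.67% of all genes) and 2 lower (8.33%) in the NAc. In the mPFC they had 7 higher (14.9%) and 1 lower (19.9%). Whether the partners differed from all genes was not tested.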

How the data were processed

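Per the labels and the study's methods, the authors sorted NeuN-positive cells, prepared SMART-seq low-input libraries after ribosomal depletion, trimmed reads with cutadapt and quantified transcripts with Salmon. The deposited files give estimated counts, TPM and an effective length in bases (a positive signal-type value) per transcript and library; the authors made these values, and the sources used here do not give versions. Here the estimated counts were summed per gene with GENCODE vM39 (GRCm39; 116085 of 117209 transcripts matched) and rounded to whole numbers.

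Populations were compared within each sex and region with edgeR 4.0.16 in R 4.3.3 (quasi-likelihood test, TMM factors, filterByExpr, 12 libraries per fit, Benjamini-Hochberg adjustment over all genes tested). The alternatives were DESeq2 1.42.0, its size factors, no filter, counts scaled by effective length, the pool as a block and leaving out libraries. The threshold was an adjusted p of 0.05. All 93 members passed the filters in every fit. CPM of single libraries and of pool markers used TMM factors over 48 libraries. Marker sums by group used factors over all libraries, naive ones included, and the region values used factors over the pool sums. TPM is the mean of the deposited values. The replicate numbers pair the 4 populations of a pool by the sorting design: same-numbered libraries deviated together (mean correlation 0.0922 to 0.170 by sex and region, others -0.0851 to -0.0457). On simulated data with 200 changed genes in the female NAc sucrose-seeking comparison, 4.55% were recovered at a log2 change of 0.5, 46.3% at 1 and 77.6% at 1.5. The simulation changed fewer genes than the measured comparison called and had no pool effect, so these shares do not give the power in the measured data.

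Genes were named by rule: the 2 highest per subfamily, those past the threshold (up to 10 each way by smallest p), and the 2 smallest p in a population comparison with none; some genes are counted but not reported here by name. The members, lists and rules were chosen with earlier results of these data known. Pools within a group are of separate mice, but the populations of a pool come from the same mice. The main fits treated all libraries as independent, so their p-values do not take this pairing into account. The main region fits likewise did not pair the NAc and mPFC sums. Only the fits with the pool as a block did so, and their counts are given beside the others. Kcn genes that overlap or are antisense to other genes were not separated by strand.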

Additional observations from a re-analysis of the deposited data

How the results depend on the processing

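The pooled sorting allowed a paired analysis: with the pool as a replicate block, sucrose-seeking versus non-ensemble called 35 (female NAc), 20 (male NAc), 8 (female mPFC) and 12 members (male mPFC). The block called 3, 3, 6 and 2 for overlapping versus non-ensemble in that order, 11, 2 and 2 for cocaine-seeking versus sucrose-seeking in female NAc, male NAc and female mPFC, and 1, 1 and 2 for cocaine-seeking versus non-ensemble in female NAc, female mPFC and male mPFC. It called 22 for the male region comparison and 7 for its sex difference, and changed no other count by over 1.5 times. Where no share of all genes is given for a block count, that count cannot be set against all genes. With both sexes together the calls were 34 (sucrose-seeking, NAc), 7 (sucrose-seeking, mPFC), 10 (cocaine-seeking versus sucrose-seeking, NAc) and 1 (overlapping, each region). DESeq2 called 29 and 15 for sucrose-seeking in female and male NAc, 3 in each mPFC, 5 for cocaine-seeking versus sucrose-seeking in female NAc, 1 for overlapping in male NAc, 19 for the male region comparison and 25 for its sex difference. The male region comparison gave 7 with DESeq2's size factors and 7 with length-scaled counts.

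Counts scaled by effective length called 2 (female NAc) and 0 (male NAc) for sucrose-seeking versus non-ensemble; 15 of the 18 female and 8 of the 9 male calls kept their sign, and among those that did not were Kcna1 (0.32) and Kcnip3 (0.18) in females. Leaving out a library or pool gave 0 to 24 calls in female NAc and 0 to 10 in male NAc for that comparison, 0 to 5 for cocaine-seeking versus sucrose-seeking in female NAc, 42 to 65 and 4 to 17 for the female and male region comparisons, 0 to 32 for their sex difference (18 without the mPFC sum of male pool 3), 17 to 30 (NAc) and 38 to 49 (mPFC) for naive libraries, and 0 to 0 elsewhere. Most of these counts stand without the share of all genes and cannot be read as particular to the members. The cause of these shifts was not tested. Leaving out whole pools, and the block averaged over the sexes, were chosen after seeing the data. In the simulated female NAc comparison of sucrose-seeking with non-ensemble cells, most changes of a log2 of 0.5 went uncalled. That simulation changed 200 genes and had no pool effect, where the measured comparison called 4078 genes. Its recovery therefore does not give the power of the measured comparison.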
